A study of Mus musculus with 8 samples.

Results

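Binding of the glucocorticoid receptor (GR) was examined at 10 apolipoprotein genes, Apoa1, Apoa2, Apoa4, Apoa5, Apob, Apoc1, Apoc3, Apoe, Apoh and Apom, by chromatin immunoprecipitation and sequencing (ChIP-seq) of mouse liver. Overlapping peaks of the 6 GR lists were merged into sites, and a site was taken when its centre lay within 50 kb of a gene start in GENCODE M21. Of 51431 GR sites in all, 104 met this rule. They fell into 6 loci, because Apoc1 and Apoe lie side by side, as do Apoa1, Apoc3, Apoa4 and Apoa5, and a site was counted once in each such cluster. All libraries came from livers of male C57BL/6J mice on regular chow. The 2 ctrl. libraries came from mice fed only at night, the 2 cal. res. libraries from mice under caloric restriction, and the 2 CORT libraries from night-fed mice given corticosterone, by injection per the methods of the study. Per the study, ctrl. mice had free access to food until a final week of night feeding. Cal. res. mice were fed at lights-off. Livers for GR were taken at lights-off, the time of the daily corticosterone peak. The study compared ctrl. with cal. res. to ask where GR binds under food shortage, and with CORT to ask what the hormone alone does. No vehicle-injected group was used here. The methods call the libraries of a group biological replicates, and the labels do not say whether each came from 1 mouse, so p-values measure only the spread between these libraries. A further list held FOXO1 regions called on 2 merged cal. res. libraries, so it has no replicate check.

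GR is a nuclear receptor that is activated by glucocorticoids such as corticosterone and binds DNA at glucocorticoid response elements, often beside liver factors such as the forkhead and C/EBP proteins. FOXO1 is a forkhead factor that is held out of the nucleus by insulin signalling. Apolipoproteins are the protein coats of lipoprotein particles and are made largely by hepatocytes. APOB is the scaffold of very low and low density lipoproteins, APOA1 and APOA2 are the main proteins of high density lipoprotein (HDL), and APOE directs particles to uptake by the liver. APOC3 slows, and APOA5 aids, the removal of triglycerides by lipoprotein lipase. APOA4 and APOC1 ride on several particle classes, APOM carries sphingosine-1-phosphate on HDL, and APOH, beta-2-glycoprotein I, binds phospholipids.

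The sequences below are 200 bp windows of the RefSeq copy of GRCm38, forward strand, around the summit of the strongest GR site of each locus, and of 3 places chosen after their values were seen: the strongest FOXO1 region of the loci, a site with peaks under cal. res. and CORT and none in ctrl., and the RefSeq start of Apoh. The number after each gene name is the distance of the whole site's centre from the gene start, negative for upstream. Capitals mark matches to a GR element (AGAACA, 3 bases, TGTTCT, with at most 2 mismatches in the fixed letters) or to a forkhead element (TGTTTAC or TGTTTGC), on either strand.
Apoa1 -12.68 kb (chr9:46215786-46215985): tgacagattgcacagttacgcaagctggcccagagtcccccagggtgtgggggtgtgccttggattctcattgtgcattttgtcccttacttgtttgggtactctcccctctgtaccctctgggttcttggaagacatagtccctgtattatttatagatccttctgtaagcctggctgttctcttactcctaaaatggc
Apoa5 -10.64 kb, FOXO1 summit (chr9:46256760-46256959): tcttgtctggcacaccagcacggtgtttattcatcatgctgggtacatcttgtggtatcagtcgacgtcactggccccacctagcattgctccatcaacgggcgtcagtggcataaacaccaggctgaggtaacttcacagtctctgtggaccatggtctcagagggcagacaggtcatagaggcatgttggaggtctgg
Apoa4 -1.66 kb (chr9:46238946-46239145): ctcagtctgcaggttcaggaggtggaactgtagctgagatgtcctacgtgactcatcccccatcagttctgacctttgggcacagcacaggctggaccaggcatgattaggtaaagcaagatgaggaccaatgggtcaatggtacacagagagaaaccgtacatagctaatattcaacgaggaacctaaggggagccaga
Apoa2 -20.93 kb (chr1:171204353-171204552): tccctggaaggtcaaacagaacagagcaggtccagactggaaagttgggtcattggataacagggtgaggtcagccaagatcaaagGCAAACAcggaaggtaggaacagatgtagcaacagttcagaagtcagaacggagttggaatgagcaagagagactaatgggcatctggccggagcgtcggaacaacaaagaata
Apoe -1.69 kb (chr7:19701009-19701208): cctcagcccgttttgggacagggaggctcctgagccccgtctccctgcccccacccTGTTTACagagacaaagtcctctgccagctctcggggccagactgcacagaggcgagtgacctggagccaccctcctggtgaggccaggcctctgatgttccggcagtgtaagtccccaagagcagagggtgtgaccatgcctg
Apom -32.92 kb (chr17:35164936-35165135): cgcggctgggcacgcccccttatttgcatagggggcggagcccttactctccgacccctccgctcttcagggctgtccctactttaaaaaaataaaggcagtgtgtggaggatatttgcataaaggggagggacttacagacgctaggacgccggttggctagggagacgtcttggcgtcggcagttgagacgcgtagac
Apob -27.42 kb (chr12:7950297-7950496): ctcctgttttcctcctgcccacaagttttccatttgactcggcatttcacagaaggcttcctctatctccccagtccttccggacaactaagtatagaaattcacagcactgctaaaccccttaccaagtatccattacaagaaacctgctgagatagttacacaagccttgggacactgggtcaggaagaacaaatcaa
Apoh -35.96 kb (chr11:108307339-108307538): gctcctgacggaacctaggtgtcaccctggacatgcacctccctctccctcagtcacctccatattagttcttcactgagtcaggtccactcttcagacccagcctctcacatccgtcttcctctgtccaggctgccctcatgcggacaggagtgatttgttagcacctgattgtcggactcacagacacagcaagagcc
Apoh, RefSeq start (chr11:108395061-108395260): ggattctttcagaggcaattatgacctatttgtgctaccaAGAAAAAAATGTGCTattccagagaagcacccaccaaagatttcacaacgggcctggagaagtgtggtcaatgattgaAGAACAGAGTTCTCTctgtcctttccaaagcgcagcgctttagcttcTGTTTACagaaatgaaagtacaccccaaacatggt
GR element matches stood at the RefSeq start of Apoh (AGAACAGAGTTCTCT and AGAAAAAAATGTGCT). Forkhead matches stood at the strongest sites of Apoa2 and Apoe and at the RefSeq start of Apoh. The windows of the strongest Apoa1, Apob, Apom and Apoh sites, of the Apoa4 site and of the strongest FOXO1 region held neither string, which says only that these letters were not found there. The strongest Apoa1 and Apom windows held a C/EBP string, TTGCNNAA on either strand. Over the windows of all 104 sites, 3.85% held the GR element against 3.34% of all sites, and 11.5% held the forkhead element against 11.4%. AGAACA alone, which is also one arm of the GR element, was in 26% of the apolipoprotein windows and 18.4% of all windows. CAAAGTC, a string of the liver factor HNF4, was in 9.62% against 6.04%. For the C/EBP string the shares were 15.4% and 15.1%, for TTCNNNGAA, bound by STAT factors, 7.69% and 8.16%, and for the E-box CACGTG 3.85% and 4.73%. The median GC content of the windows was 49.5% at the apolipoprotein sites and 49% at all sites.

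The lists differed in length before any gene was looked at. The GR lists held 36234 and 12458 distinct regions in ctrl., 22707 and 18747 under cal. res. and 29473 and 39136 under CORT, and the FOXO1 list held 8068. The library names in the labels come in 2 styles, one shared by ctrl. 1 and both CORT libraries and one shared by ctrl. 2 and both cal. res. libraries. Whether a style marks a batch is not stated, and cal. res. and CORT cannot be told apart from it. The study states a nominal sequencing depth, but read totals of single libraries were not analysed here, so differences in depth between libraries are unknown and a missing peak means only that none passed the caller's threshold. To compare lists, a peak's fold enrichment over local background was turned into its percentile within its own list, from 0 for the weakest region to 100 for the strongest. As a check of the tissue, 6 of 6 hepatocyte genes, among them Alb and Tat, had a site held by all groups, as did 2 of 6 genes of other liver cells (Stab2 and Pecam1, both of endothelial cells) and 0 of 4 genes not expressed in liver. In these lists of whole liver, altered GR binding and an altered share of cell types cannot be told apart. From single nuclei of ctrl. and cal. res. livers, the study reported no effect of the diet on the major cell types. It describes no such data for CORT.

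Sites present in all libraries made up a larger share of the apolipoprotein sites than of all sites, a description that no test here extends beyond these lists. A peak was found in all 6 lists at 28 of the 104 sites (26.9%), against 15.7% of all sites. Both libraries of a group had to have a peak for the group to hold the site. Ctrl. held 35 sites (33.7%, all sites 21.4%), cal. res. 38 (36.5%, all sites 27.9%) and CORT 53 (51%, all sites 43.7%). Another 39 sites, 37.5% against 37.4% of all sites, had a peak in 1 list only. By locus, the sites present in all lists numbered 10 of 25 in the Apoa1-Apoc3-Apoa4-Apoa5 cluster, 8 of 14 at Apoc1-Apoe, 5 of 19 at Apoa2, 3 of 9 at Apom, 2 of 28 at Apob and 0 of 9 at Apoh. Among 21938 protein-coding genes the median number of such sites within 50 kb was 0 and the highest was 10. Apoa1, Apoc3 and Apoa4, which share these sites, were among the 10 genes that reached 10. For Apoc1 and Apoe, 47 genes had at least as many. Per library, 59 and 35 of the 104 sites had a peak in ctrl., 45 and 46 under cal. res. and 64 and 84 under CORT. In ctrl. 1 this was a smaller share than over all sites (56.7% against 67.6%), and in the other 5 libraries a larger one, from 43.3% against 40.3% in cal. res. 1 to 33.7% against 22.3% in ctrl. 2. The median percentile of these peaks ran from 49.7 in CORT 1, where all peaks had 51, to 72.3 in ctrl. 1, where all had 50.5, and between 17.2% and 22.2% of them were among the strongest 10% of their list.

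**Figure D1:**
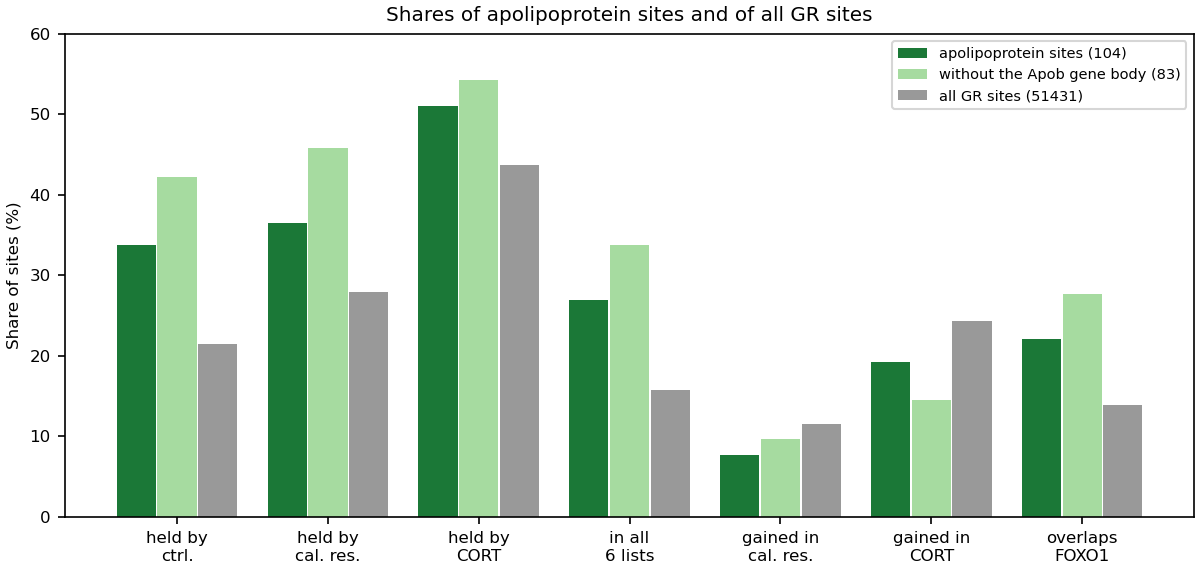
Share of sites (%) that were held by each group, present in all 6 GR lists, gained in cal. res. or CORT, or overlapped by a FOXO1 region, for the 104 apolipoprotein sites, for the 83 of them outside the Apob gene body, and for all 51431 GR sites. The apolipoprotein bars stand above the bars of all sites for every class except the gained ones, where they stand below.

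**Figure D2:**
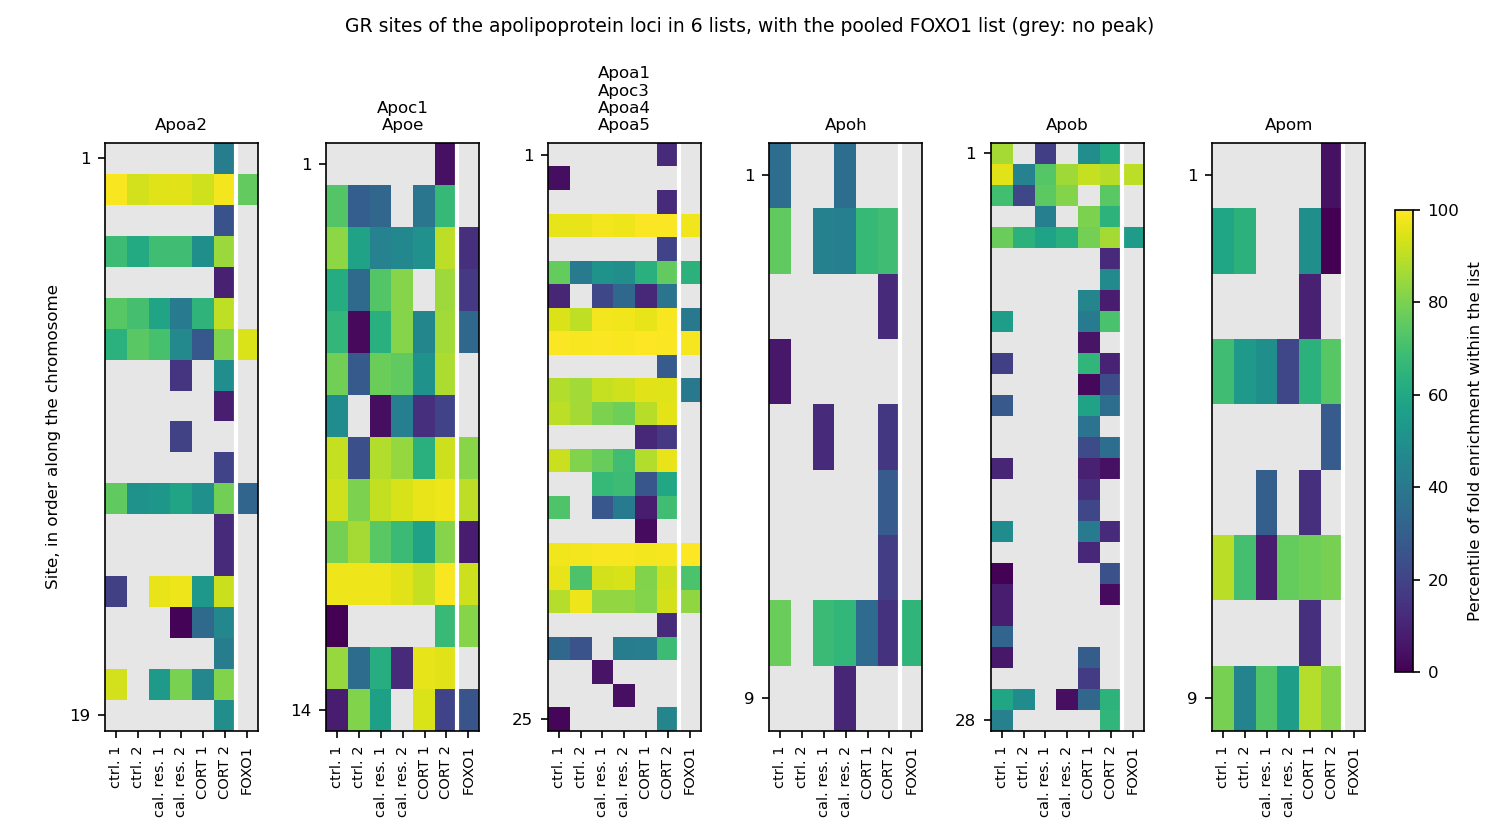
Percentile of fold enrichment within the list (colour, 0 to 100) of each apolipoprotein site (rows, in order along the chromosome, 1 panel per locus) in the 6 GR libraries and the pooled FOXO1 list (columns), grey where the list has no peak. Rows coloured across all 6 GR columns are the 28 sites present in all lists, and long grey stretches with marks only in ctrl. 1, CORT 1 and CORT 2 stand out at Apob.

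The strongest GR binding of the set lay in the Apoa1-Apoc3-Apoa4-Apoa5 cluster on chromosome 9, which joins HDL and triglyceride genes. Its strongest site, at -12.68 kb of Apoa1 (chr9:46214130-46217667), lay in an intron of the neighbouring gene Sik3. Its fold enrichment was 37.7 and 20.5 in ctrl., against 61.2 and 38.4 under cal. res. and 65.9 and 60.7 under CORT. The percentiles were 99.3 and 99.0 in ctrl., against 99.5 and 99.1 under cal. res. and 99.8 and 99.5 under CORT. It thus stood near the top of each list and the groups lay within 1 percentile of each other. Cal. res. minus ctrl. was 0.12 percentiles (2 libraries each, two-sided exact permutation p = 0.667) and CORT minus ctrl. was 0.47 (p = 0.333), where 0.333 is the smallest p that 2 libraries against 2 allow. No difference at a single site can therefore pass 0.05 in this design.

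A comparably strong site stood between Apoa4 and Apoa5, at -10.64 kb of Apoa5 (chr9:46255644-46260334), with percentiles of 97.8 and 98.3 in ctrl., against 99 and 99.1 under cal. res. and 98.3 and 98.8 under CORT. The FOXO1 region inside it had a fold enrichment of 45.2, which ranked 2 among the 8068 FOXO1 regions. A further Sik3 intron site, at -31.97 kb of Apoa1, had percentiles of 96.4 and 96.6 in ctrl., against 98.4 and 97.5 under cal. res. and 99.6 and 99.5 under CORT, so both treated groups lay above ctrl. with no overlap. At these strongest sites a rise could hardly show, since ctrl. already stood close to 100.

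The sites over the gene starts of the cluster ranked lower than these distal sites in most libraries. In ctrl. 2 the site over the Apoa5 start ranked above the site at -31.97 kb. In each list a site takes the percentile of its strongest region, which in a wide interval can lie away from the start. The interval that covers the Apoa1 start ran through the whole gene (chr9:46228057-46233066) and had percentiles of 90.2 and 86.6 in ctrl., against 80.1 and 78.1 under cal. res. and 89.2 and 95.8 under CORT. At the Apoc3 start (chr9:46234243-46236320) they were 92 and 80.9 in ctrl., against 76.6 and 69.5 under cal. res. and 88.3 and 96.7 under CORT. At both starts the cal. res. libraries lay below both ctrl. libraries, and CORT overlapped ctrl. The site over the Apoa5 start (chr9:46267608-46274507) had 88.7 and 97.6 in ctrl., against 83.6 and 83.8 under cal. res. and 81.4 and 93.6 under CORT, again with cal. res. below ctrl. Over all genes, cal. res. lay below ctrl. in this way at 38.7% of sites over a protein-coding start. The Apoa4 start differed from the other three genes: ctrl. 1 had a peak there at percentile 72.3 and ctrl. 2 had none, cal. res. had 27.1 and 41.1, and CORT had 7.9 and 69.4. No FOXO1 region overlapped the sites over the Apoa1, Apoc3 and Apoa4 starts, whereas one of percentile 83.4 overlapped the Apoa5 site.

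**Figure D3:**
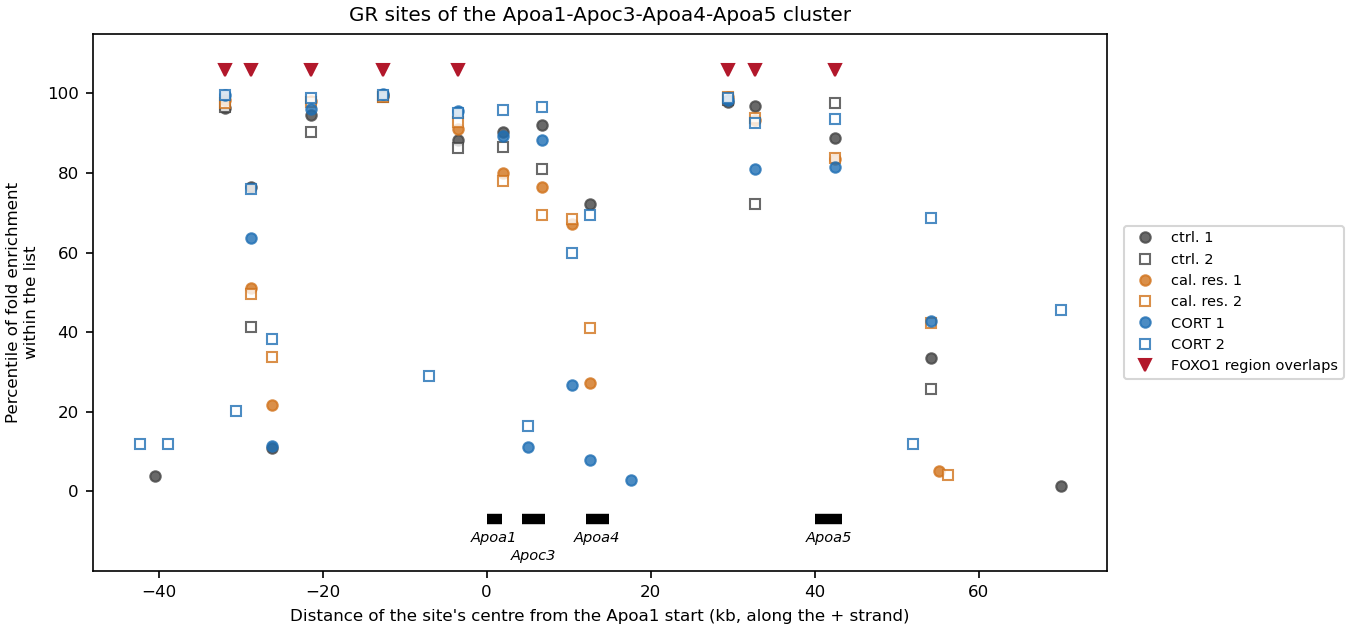
Percentile of fold enrichment within each list (vertical axis) against the distance of the site's centre from the Apoa1 start in kb (horizontal axis) for the 25 sites of the Apoa1-Apoc3-Apoa4-Apoa5 cluster; filled circles are library 1 and open squares library 2 of each group, black bars are the genes and triangles mark sites that a FOXO1 region overlaps. The sites at -31.97 kb and -12.68 kb of Apoa1 and at -10.64 kb of Apoa5 stand above percentile 96 in all 6 libraries.

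The strongest Apoa2 site lay in an intergenic stretch on chromosome 1 at -20.93 kb (chr1:171203385-171204862). Its percentiles were 99.1 and 93.1 in ctrl., against 95.3 and 95.4 under cal. res. and 92.6 and 98.2 under CORT, and the groups overlapped. Cal. res. minus ctrl. was -0.74 percentiles (exact permutation p = 1, n = 2 each) and CORT minus ctrl. was -0.72 (exact p = 0.667). The Apoa2 start itself (chr1:171224718-171225503) ranked lower and spread widely, with 63.9 and 74.5 in ctrl., against 70.9 and 47.2 under cal. res. and 27.4 and 80.6 under CORT. A strong FOXO1 region lay there, of fold 13.7 and percentile 94.3. Other Apoa2 sites sat in neighbouring genes, among them 1 at the promoter of Nr1i3, a nuclear receptor of drug metabolism, so that distance alone does not tie them to Apoa2.

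At Apoc1-Apoe on chromosome 7 the strongest site stood at -1.69 kb of Apoe (chr7:19700093-19701653). It had percentiles of 97.6 and 97.3 in ctrl., against 97.4 and 95.6 under cal. res. and 91.1 and 98.9 under CORT, and a FOXO1 region of percentile 92.2. Cal. res. minus ctrl. was -0.98 (exact permutation p = 0.667, n = 2 each) and CORT minus ctrl. -2.50 (exact p = 1). The first was smaller than the gap between the cal. res. libraries, and the second smaller than the gap between the CORT libraries. The site over the Apoe start (chr7:19697999-19699784) had 79.2 and 86.5 in ctrl., against 74.6 and 68.2 under cal. res. and 57.5 and 81.9 under CORT, with cal. res. below ctrl. A broad interval over the Apoc1 start (chr7:19689777-19697230) had 92.6 and 80.4 in ctrl., against 91 and 93.8 under cal. res. and 96.5 and 97.5 under CORT, with CORT above ctrl. Sites of this locus also lie at the starts of Apoc2 and Apoc4, lipoprotein genes of the same cluster.

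Apom, on chromosome 17 in a gene-dense stretch, had 9 sites and none overlapped a FOXO1 region. Its strongest site, at -32.92 kb at the promoter of Prrc2a (chr17:35164301-35165649), had 79.3 and 45.1 in ctrl., against 72.7 and 55.9 under cal. res. and 89 and 81.9 under CORT. Both CORT libraries lay above both ctrl. libraries, by 23.25 percentiles in the mean (exact permutation p = 0.333, the smallest possible with n = 2 each), while cal. res. minus ctrl. was 2.08 (exact p = 1). The 2 ctrl. libraries alone were further apart than that. At the Apom start (chr17:35131904-35132213) only cal. res. 1 and CORT 1 had a peak, at 30.1 and 13.5.

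**Figure D4:**
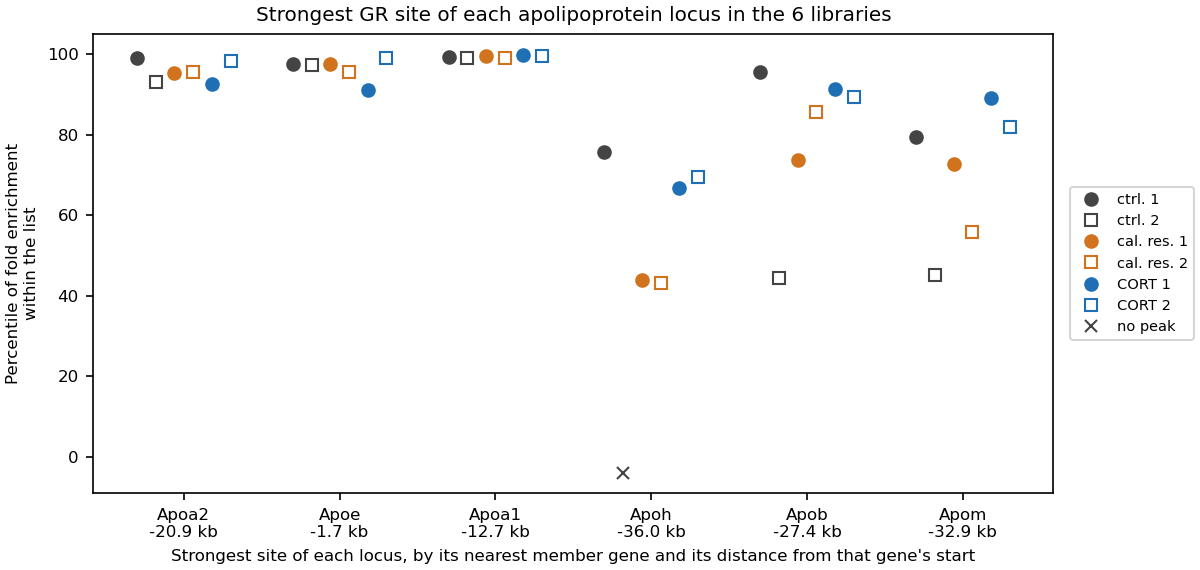
Percentile of fold enrichment within the list (vertical axis) of the strongest site of each locus (horizontal axis, by the nearest gene and the distance from its start) in the 6 libraries; filled circles are library 1, open squares library 2, and a cross marks a library with no peak. The Apoa2, Apoe and Apoa1 sites stand above percentile 91 in every library, and the Apoh, Apob and Apom sites spread from 43.1 to 95.6.

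Apob had 28 sites, the most of the 10 genes. The strongest, at -27.42 kb (chr12:7949601-7950852), had percentiles of 95.6 and 44.5 in ctrl., against 73.8 and 85.7 under cal. res. and 91.4 and 89.3 under CORT, with a FOXO1 region of percentile 89.9. All treated libraries lay between the 2 ctrl. libraries, so the differences of 9.68 and 20.30 percentiles (exact permutation p = 1 for both, n = 2 each) were within the ctrl. spread. The site over the Apob start (chr12:7977191-7979774) had 77 and 64.1 in ctrl., against 58 and 62.9 under cal. res. and 79.2 and 86.4 under CORT. There cal. res. lay below and CORT above ctrl.

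The Apob gene body, from 2 kb after the start to the end of the gene, held 21 sites in exons and introns. Peaks there were found in ctrl. 1 (10 sites), CORT 1 (15) and CORT 2 (12), and in none of ctrl. 2, cal. res. 1 and cal. res. 2, the libraries of the other name style. Over all GR sites, 48.5% had a peak in at least 1 of those 3 libraries. The body peaks were weak, with a highest percentile of 71.3, and no FOXO1 region overlapped them. CORT held 8 of the 21. Of 552 protein-coding genes with at least 10 sites in the body, 8 had no peak in the same 3 libraries, and Apob was 1 of these. That comparison was made after the Apob values were seen. The part of library style in this pattern was not tested, and the counts of CORT below are given with and without these sites.

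**Figure D5:**
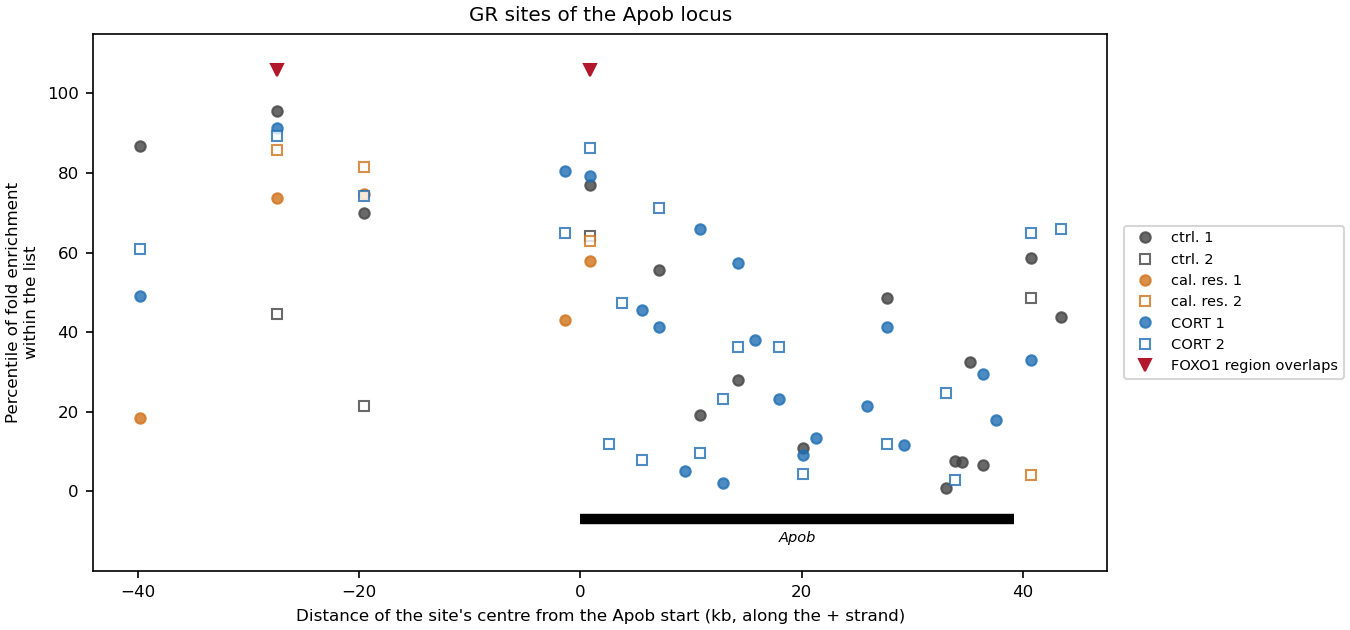
Percentile of fold enrichment within each list (vertical axis) against the distance of the site's centre from the Apob start in kb (horizontal axis) for the 28 sites of the Apob locus, with symbols as in the plot of the Apoa1 cluster. Between 2 kb and the end of the gene, the marks belong to ctrl. 1, CORT 1 and CORT 2, with 0 peaks from ctrl. 2, cal. res. 1 or cal. res. 2.

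At Apoh, GENCODE M21 places the gene start 51.9 kb upstream of the RefSeq start, at the Prkca promoter, so the rule missed the sites at the RefSeq start. Within the rule no Apoh site was held by ctrl. The strongest, at -35.96 kb in a Prkca intron (chr11:108307093-108307700), had 75.6 and no peak in ctrl., 43.9 and 43.1 under cal. res. and 66.8 and 69.4 under CORT. At the GENCODE start itself only ctrl. 1 had a peak, of percentile 6.3. The RefSeq start, added after the values were seen, lay in a site of all 6 lists (chr11:108394574-108395524) with 80.8 and 52.5 in ctrl., against 92.8 and 89.1 under cal. res. and 92.7 and 89.1 under CORT. Both treated groups lay above both ctrl. libraries there, and the gap between the ctrl. libraries exceeded the gap from the higher of them to any treated library. A FOXO1 region of percentile 34.5 overlapped it, and the GR element AGAACAGAGTTCTCT lies 25 bases from its summit.

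A site was called gained when a group held it and ctrl. did not. Cal. res. gained 8 of the 104 sites (7.69%, all sites 11.5%) and CORT gained 20 (19.2%, all sites 24.3%), so the apolipoprotein shares were somewhat below the background. All 8 sites gained in cal. res. were also gained in CORT, as were 79.3% of all sites gained in cal. res., and both counts share the ctrl. libraries. Of the 8, 7 had a peak in ctrl. 1 and 0 in ctrl. 2, the shortest list. Of the 20, 13 had a peak in ctrl. 1 and 0 in ctrl. 2. Without ctrl. 2 the gains fell to 1 and 7. With each list shortened to its 12458 regions of smallest p-value, they numbered 7 and 0. Outside the Apob gene body, CORT gained 12 of 83 sites (14.5%).

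Where both ctrl. libraries lacked a peak, cal. res. gained 1 site (all sites 0.842%) and CORT gained 7 (6.73%, all sites 4.28%). The 1 site in common stood between Apoc3 and Apoa4, at -1.66 kb of Apoa4 (chr9:46238779-46239291), with cal. res. percentiles of 67.1 and 68.5, CORT percentiles of 26.6 and 59.8, and no FOXO1 region. Of the others, 5 were in an intron of Apoc3 at 1.97 kb (11.1 and 16.5), at -1.40 kb of Apob (80.4 and 64.8, with 43 in cal. res. 1), and at 5.54, 12.91 and 17.98 kb in the Apob gene body. Of the sites named, only the one upstream of Apob ranked above the middle of the list in both CORT libraries.

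The other 7 sites gained in cal. res. had a ctrl. 1 peak. Both cal. res. libraries ranked above ctrl. 1 at 2 of the 7 and below it at 5. The site at 35.32 kb of Apoa2 had 93 in ctrl. 1, 53.8 and 79.7 under cal. res. and 46.4 and 80.9 under CORT, and was among the 5. Others were at 8.56 kb of Apoc1, -26.18 kb of Apoa1, the Apoa4 start, and -35.96 and 42.12 kb of Apoh. CORT held 12 sites that neither other group held (11.5%, all sites 15.2%), and 8 of the 12 were in the Apob gene body.

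In the other direction, 7 sites were held by ctrl. and not by both other groups (6.73%, all sites 5.64%), and each of the 7 was held by 1 of them. Cal. res. lacked 5, at 27.47 kb of Apoc1, -48.87 kb of Apoe, 14.17 kb of Apoa5, 40.69 kb of Apob and 42.79 kb of Apom. At all of these but the Apom site, 1 cal. res. library still had a peak. Its percentile was 33 at Apoc1, 56.9 at Apoe, 42.2 at Apoa5 and 4.12 at Apob. CORT lacked the sites at 16.16 kb of Apoc1 (61.9 and 34.7 in ctrl., 73.2 and 82 in cal. res., 85.5 in CORT 2) and at -19.53 kb of Apob (69.9 and 21.4 in ctrl., 74.7 and 81.5 in cal. res., 74.3 in CORT 2). In both cases CORT 2 had a peak and CORT 1 did not.

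Ranks were compared at sites with a peak in all libraries of both groups. Over 30 such sites the median difference of cal. res. minus ctrl. was -0.31 percentiles, against 0.04 over 8431 sites of all genes, with 15 sites above and 15 below 0 and a range from -38.1 to 38.3. Both cal. res. libraries ranked above both ctrl. libraries at 7 of the 30 (all sites 11.4%) and below at 8 (all sites 21.1%). Of the 7, 4 were at the Apoa1 cluster, in Sik3 introns or intergenic, and the starts of Apoa1, Apoc3, Apoa5, Apoe and Apob were among the 8. Of all sites over a protein-coding start, 38.7% ranked below and 4.89% above. For CORT minus ctrl. the median over 33 sites was 4.10 percentiles, against 8.23 over 9942 sites of all genes, with 25 above and 8 below 0. Both CORT libraries ranked above both ctrl. libraries at 9 (27.3%, all sites 27.1%) and below at 1 (all sites 5.73%). Replicates of a group differed by a median SD of 10.7 percentiles in the first comparison and 13.5 in the second, a spread of single sites that says nothing of the error of a median over sites, which was not tested. Against ctrl. 1 alone, the ctrl. library whose name style CORT shares, the CORT difference was -1.90, and against ctrl. 2 alone, whose style cal. res. shares, the cal. res. difference was 1.98. The CORT value against ctrl. 1 also took in the 13 sites gained in CORT that had a ctrl. 1 peak. The cal. res. value rests on the same 30 sites. Medians over all sites were not computed for this setting.

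FOXO1 regions overlapped 23 of the 104 sites (22.1%, all sites 13.9%), of which 9 were at Apoc1-Apoe, 8 in the Apoa1 cluster, 3 at Apoa2, 2 at Apob, 1 at Apoh and 0 at Apom. All 31 FOXO1 regions near the 10 genes overlapped a GR site, as did 93.6% of all FOXO1 regions. Among sites held by all 3 groups, 19 of 28 overlapped FOXO1 (67.9%, all sites 50.7%). These 28 sites were wide, with a median of 1903 bp against 1139 bp for all sites held by all groups, and the part of width in this share was not tested. The FOXO1 regions inside the sites at -31.97 and -12.68 kb of Apoa1 and -10.64 kb of Apoa5 had percentiles of 98, 98.8 and, after rounding, 100. Those at the next strongest sites of this cluster, at -21.40 and -3.51 kb of Apoa1, had 40.3 each. GR percentiles averaged 96 and 91.5 there. At the strongest Apoe and Apoa2 sites, where GR percentiles averaged 96.3 and 95.6, the FOXO1 percentiles were 92.2 and 75.9. FOXO1 values were used here from cal. res. only, so a difference between diets cannot be given.

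Genes that act on the same particles were read for comparison, from a list of 26 lipoprotein genes. Outside the apolipoprotein sites they had 233 sites, of which 56 (24%) were in all 6 lists, ctrl. held 68 (29.2%), cal. res. 84 (36.1%) and CORT 112 (48.1%), and 45 (19.3%) overlapped FOXO1. These shares lay between those of the apolipoprotein sites and of all sites. Scarb1, the HDL receptor, and Lrp1, a remnant receptor, had 6 sites each in all lists. Apon had 6 and Abcg5, a sterol exporter, had 5. Lpl, Vldlr and Abcg1 had 0 such sites. Cal. res. gained with no ctrl. peak 2 of the 233 sites (0.858%), of which 1 was near Lipg, an endothelial lipase.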

How the data were processed

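The files were 6 peak lists of GR ChIP-seq in mouse liver, 2 per group (ctrl., cal. res., CORT), and 1 pooled FOXO1 list from 2 cal. res. libraries, grouped by sample titles. As the study's methods state, BWA was used by the authors to align reads to mm10. They dropped duplicates and ambiguous reads, and called peaks with MACS2, library by library for GR and on merged reads with a stricter cutoff for FOXO1. An input control was not given in the sources used here. The fold enrichment deposited is the ratio of the summit's pileup to local background in 1 library. Lists were compared by its within-list percentile, and it also served to choose summits, as a limit in 1 alternative, and as values printed for single sites. Its p-values and q-values were deposited as -log10 from the peak caller. The largest q-value was 0.0998 in the GR lists and 9.84e-06 in the FOXO1 list.

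Rows of 1 region were reduced to the summit of highest fold enrichment, regions sharing at least 1 bp were merged into sites, and genes were taken from GENCODE M21 (GRCm38). The study also used read counts to assign sites to groups, which were not analysed here. Counts and medians carry no test. Single sites were compared by two-sided exact permutation tests over libraries, which describe these libraries. Named were the strongest site of each locus by mean percentile with absent peaks at 0, the sites at the gene starts, sites gained with no ctrl. peak, sites that ctrl. held and another group lacked, and sites with FOXO1, in part by their counts. Some sites and genes that these rules select are not reported here. Windows were 200 bp. The members and gene lists were chosen with earlier results of these data known. Merging, ranking and tests were tested on simulated data first. Alternatives changed the q-value and fold limits, list length, overlap, window, ranking, group rule and libraries. Python 3.11.15, NumPy 2.4.6, pandas 2.3.3 and pysam 0.24.0 were used.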

Additional observations from a re-analysis of the deposited data

How the results depend on the processing

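The counts of sites moved with what the lists hold. At a q-value of at most 1e-05, ctrl. held 20 sites, CORT 35, and cal. res. gained 13. At a fold enrichment of at least 5, ctrl. held 19, CORT 35, and cal. res. gained 13. With 12458 regions per library ctrl. held 28, cal. res. 30 and CORT 22, and CORT gained 0. At equal list length CORT thus held fewer sites than ctrl., and shares over all sites were not computed for this setting. Within 10 kb of a gene start, ctrl. held 14, cal. res. 17 and CORT 21 sites, 3 and 7 were gained, and 11 overlapped FOXO1, as fewer sites were counted. With a peak in either library sufficing, ctrl. held 59 and CORT 95, and CORT gained 41. Of the FOXO1 regions, the stronger 50% overlapped 15 sites. Of the alternatives added after seeing the data, leaving out the Apob gene body brought the CORT gains to 12, and the RefSeq start of Apoh moved no count by more than 1.5 times. With the left-out libraries below included, 73 of 100 recomputed counts stayed within 1.5 times the count. Besides counts of sites, the 100 include the GR element and forkhead matches of the printed windows, recounted in windows of 100 bp. Leaving out a library can change counts that do not use it only through the merging, so some of the 100 could hardly move. Over all alternatives the median percentile difference ran from -9.37 (within 10 kb of a gene start) to 2.26 for cal. res. and from -1.90 to 12.71 (at a fold enrichment of at least 5) for CORT, so neither sign was stable.

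Leaving out 1 library at a time, ctrl. held 35 to 59 sites, cal. res. 38 to 46 and CORT 53 to 84, cal. res. gained 1 to 14, CORT gained 7 to 49, and 23 to 25 overlapped FOXO1. The lowest gains came without ctrl. replicate 2, and the highest without cal. res. replicate 1 and CORT replicate 1, by construction, since 1 peak then sufficed. The median percentile difference ran from -4.97 to 2.26 for cal. res. and from -1.90 to 11.36 for CORT. Leaving out a library can also change which sites enter this median.

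Differences at the strongest sites changed sign in 13 of 110 recomputed values, and the cause was not tested. The 110 include values that repeat the reported one by construction, so 13 of 110 understates how often the sign changed. These are the values with a replicate block and those without a library of the group not compared. At equal list length cal. res. minus ctrl. was -0.55 at the Apob site and -0.51 at the Apom site, and ranked by p-value it was -8.25 at the Apom site. Leaving out 1 library, cal. res. minus ctrl. ran from -3.73 to 2.26 at Apoa2, -0.10 to 0.34 at Apoa1, -15.90 to 35.26 at Apob and -14.99 to 19.16 at Apom. CORT minus ctrl. ran from -3.71 to 2.28 at Apoa2, -6.40 to 1.40 at Apoe and -5.28 to 45.88 at Apob.

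With the replicate number as a block (replicate block), the mean differences are the same by construction, -0.31 for cal. res. and 4.10 for CORT, and no single site could pass, since 0.5 is the smallest sign-flip p from 2 pairs. The numbers did not pair the libraries, with correlations of same-numbered deviations over 8097 sites of -0.05, -0.13 and 0.07. The pairing crossed between ctrl. and CORT, added after seeing the data, gave 0 calls, as did the uncrossed one.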

Other observations

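Sites over gene starts and other sites differed in how cal. res. ranked against ctrl. Of the 7 sites over a start of Apoa1, Apoa2, Apoa5, Apob, Apoc1, Apoc3 or Apoe with peaks in all 4 libraries, both cal. res. libraries ranked below both ctrl. libraries at 5 and above at 0. Of the 23 apolipoprotein sites away from these starts, they ranked below at 3 and above at 7. Over all genes they ranked below at 38.7% and above at 4.89% of 2576 sites over a protein-coding start, whereas the 5855 other sites were balanced, with 13.3% below and 14.2% above. The difference between the apolipoprotein sites and all sites was not tested. For CORT the shares over all genes went the other way, above at 38.1% and below at 5.07% of 3489 sites over a start, and above at 21.2% and below at 6.09% of 6453 other sites. At the apolipoprotein starts CORT ranked above at 2 and below at 0 of 7. In each list the value of a site over a start is that of its strongest region, which can lie away from the start. These sets were chosen after the values were seen, percentiles depend on the make-up of each list, and the part of library name style was not tested.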
